A study of Caenorhabditis elegans with 8 samples.

Results

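The lmd genes of Caenorhabditis elegans, lmd-1, lmd-2, lmd-3, lmd-4 and lmd-5, are named for the LysM domain. The members were taken by gene name from the deposited table of counts, where 5 rows out of 46422 gene rows carried an lmd name, and all 5 passed the filter on low counts. The family was chosen by the strain difference of these rows in the same counts, lmd-4 being among the genes with the largest differences. The values by strain are therefore given as a description, with no test and no p-value for any lmd gene.

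The study compared whole larvae of 2 strains, 4 libraries each, lettered A to D and labelled as biological replicates. HBR227 larvae carry the allele gk794 of aptf-1, a gene for an AP-2 transcription factor needed by the sleep neuron RIS. N2 larvae are the wild type. All larvae of both strains hatched without food in M9 buffer from eggs freed with hypochlorite, and were collected 48 hours later in L1 arrest, with no treatment. The labels do not say what the allele changes in the gene or whether the libraries came from separate cultures, so the errors measure the spread between these libraries, which may be technical.

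A LysM domain is a short fold that holds glycans made of N-acetylglucosamine, such as bacterial peptidoglycan and chitin. Bacteria carry it in enzymes that cut their cell walls, and plants carry it in receptors that sense chitin. Chitin in the worm lines the pharynx and forms part of the eggshell. The product of lmd-3 is the worm homologue of human OXR1 and also holds a TLDc domain; proteins with that domain bind the vacuolar proton pump, the V-ATPase, in yeast and mammals. The comparison asks how transcripts of arrested larvae differ when aptf-1 is mutated.

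The 5 genes fall into a short, a branched and a long kind by their annotated structure (WBcel235, Ensembl release 115), and all are protein-coding. The short genes lie on chromosome I. For lmd-1 (WBGene00009665, 8609921 to 8611066, plus strand) the union of exons spans 939 bp and 3 transcripts code for 142 to 209 amino acids. For lmd-2 (WBGene00015008, 4644642 to 4645659, plus strand) it spans 549 bp, and the only transcript codes for 159 amino acids.

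The other members lie on chromosome V. The branched gene lmd-3 (WBGene00018700, 8415648 to 8444806, minus strand) stretches over 29159 bp, of which 3925 bp are exons, and its 7 transcripts code for 440 to 840 amino acids. The long genes are compact, with 12 exons and 1 transcript each. The transcript of lmd-4 (WBGene00017233, 7314060 to 7321009, minus strand) measures 6120 bp and codes for 2011 amino acids. The transcript of lmd-5 (WBGene00020141, 7123658 to 7128961, plus strand) measures 4628 bp and codes for 1518 amino acids. These long genes are 185 kb apart, and lmd-3 is 1095 kb from lmd-4.

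**Figure D1:**
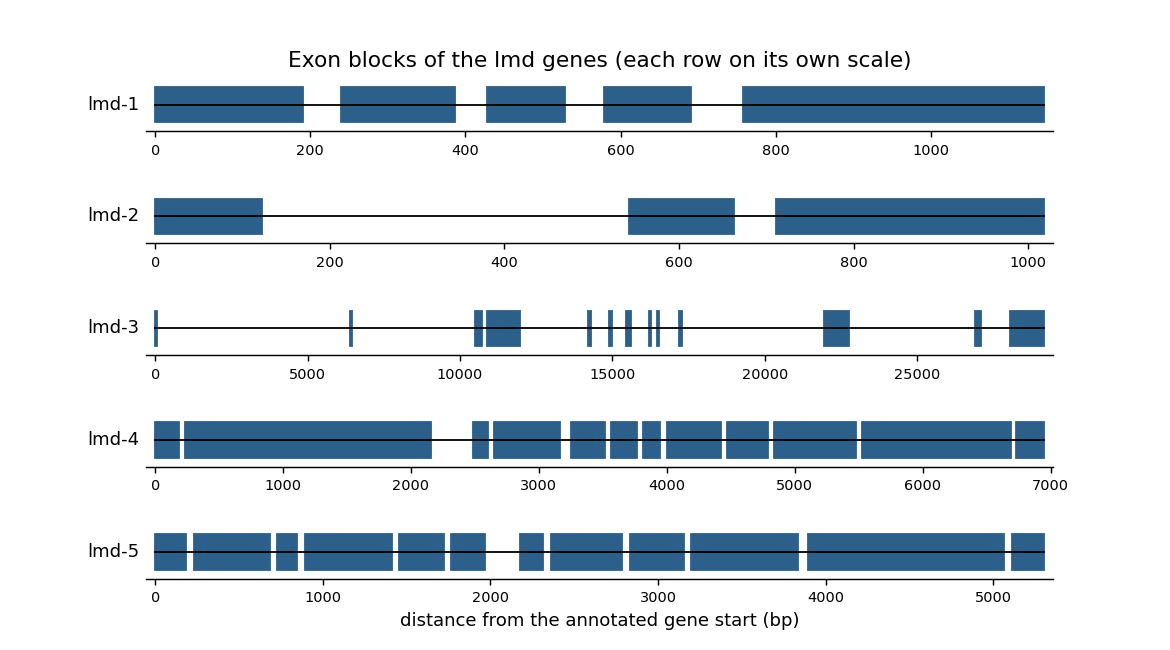
Exon blocks (boxes) and introns (lines) of the 5 lmd genes, drawn from the annotated start of each gene in bp, each row on its own scale. The long genes lmd-4 and lmd-5 are mostly exon, whereas lmd-3 spreads 3925 bp of exons over 29159 bp.

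Overlap with other genes was small except at lmd-1. Exons of F43G9.4 on the opposite strand cover 9.16% of the lmd-1 exon length, and a non-coding RNA on the opposite strand covers 1.27% of that of lmd-4. No other exon overlaps lmd-2, lmd-3 or lmd-5. Whether counting used strand is not given in the sources used here, so reads in an overlap may belong to either gene. The ribosomal protein gene rpl-4 lies on the opposite strand and ends 0.003 kb beyond the end of lmd-2, at 2821 ± 303 CPM in HBR227 and 2519 ± 101 CPM in N2 (SD, n = 4 each). How many reads of that neighbour reached lmd-2 was not tested.

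Total counts per library were 48.4 to 65 M (mega-counts) in HBR227 and 43.6 to 56.4 M in N2. Levels are given as CPM, counts divided by the depth of the library in M, with depth scaled by TMM, a correction for the makeup of each library. HBR227 A stood apart from the other 7 libraries, at 74.3 on the first principal component of log2 CPM, which held 46% of the variance, against -28.3 to 9.86 in the others. Transcripts of the mutated gene itself came to 33, 69, 56 and 52 counts in HBR227 A to D, against 161, 196, 182 and 234 in N2 A to D, so every HBR227 library lay below every N2 library. Defining markers of pharynx, intestine, epidermis, muscle, neurons, excretory cells and coelomocytes were all detected in these whole larvae.

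Per kilobase of exons, the 5 genes spanned a wide range of levels in wild-type larvae. In N2 libraries lmd-3 stood highest at 57.1 ± 1.86 RPKM (TMM-scaled CPM per kilobase of exons; SD, n = 4), above 90.1% of the 15755 tested genes that have a length. Next came lmd-2 at 18.4 ± 0.515 RPKM and lmd-1 at 12.2 ± 0.858 RPKM. The long genes were low, at 1.98 ± 0.218 RPKM for lmd-4 and 1.33 ± 0.138 RPKM for lmd-5. No neighbours in this order overlapped among the N2 libraries, the closest being lmd-4 at 1.71 to 2.21 RPKM and lmd-5 at 1.20 to 1.52 RPKM.

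In HBR227 libraries the order was the same for the first 3 genes, with lmd-3 at 71.9 ± 2.01, lmd-2 at 18.5 ± 2.14 and lmd-1 at 12.3 ± 1.82 RPKM (SD, n = 4). The long genes changed places. There lmd-5 stood at 0.983 ± 0.204 RPKM and lmd-4 came last at 0.340 ± 0.0392 RPKM, above only 6.09% of the tested genes with a length, against 24.5% in N2. Again no neighbours overlapped, since lmd-5 ranged from 0.679 to 1.11 RPKM and lmd-4 from 0.284 to 0.374 RPKM. Since lmd-3 has several transcripts, its level per kilobase depends on which are made.

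The gene lmd-4 was low in every library of the mutant strain. It had 97, 140, 89 and 115 counts in HBR227 A, B, C and D, against 570, 629, 575 and 727 counts in N2 A, B, C and D. In TMM-scaled CPM these were 2.12, 2.19, 1.74 and 2.29 in HBR227 A to D, against 12.7, 10.4, 11.7 and 13.5 in N2 A to D. The strains did not overlap, and the highest HBR227 library was far under the lowest N2 library. The mean was 2.08 ± 0.240 CPM in HBR227 and 12.1 ± 1.33 CPM in N2 (SD, n = 4 each). That is a log2 fold change, HBR227 minus N2, of -2.54 ± 0.13 (SE), or a level 5.80-fold lower in HBR227. In RNA from whole larvae, fewer cells that express a gene and less RNA per cell cannot be told apart. HBR227 A, which stood apart over all genes, was within the range of HBR227 B, C and D for lmd-4.

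**Figure D2:**
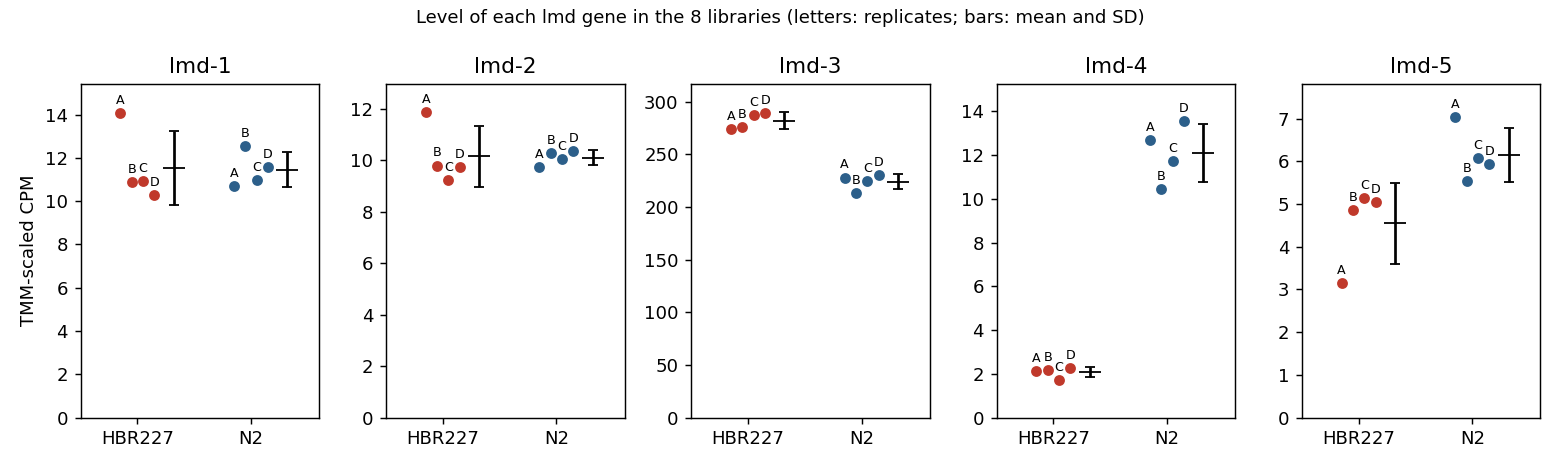
TMM-scaled CPM of each lmd gene in the 4 HBR227 libraries (left in each panel) and the 4 N2 libraries (right), with letters for replicates and bars for the mean and SD; each vertical axis starts at 0 and has its own scale. For lmd-4 the HBR227 libraries sit at 1.74 to 2.29 CPM and the N2 libraries at 10.4 to 13.5 CPM, and for lmd-1 and lmd-5 HBR227 A sits away from the other HBR227 libraries.

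The other long gene, lmd-5, was also lower in the mutant strain, but by little. Its CPM was 3.14, 4.86, 5.14 and 5.05 in HBR227 A, B, C and D, against 7.04, 5.55, 6.08 and 5.93 in N2 A, B, C and D. Every HBR227 library lay below every N2 library, though HBR227 C at 5.14 CPM came close to N2 B at 5.55 CPM. The means were 4.55 ± 0.944 CPM in HBR227 and 6.15 ± 0.637 CPM in N2 (SD, n = 4 each), which gave a log2 fold change of -0.43 ± 0.16 (SE). HBR227 A was the lowest library, and without it the log2 fold change was -0.29 ± 0.10. On lmd-4, leaving out the same library changed little, with a log2 fold change of -2.54 ± 0.12.

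The most abundant member, lmd-3, was higher in HBR227. Its CPM was 274, 276, 288 and 290 in HBR227 A to D, against 228, 214, 224 and 230 in N2 A to D, so the strains did not overlap. The mean was 282 ± 7.91 CPM in HBR227 and 224 ± 7.30 CPM in N2 (SD, n = 4 each). The log2 fold change was 0.33 ± 0.04 (SE), a level 1.26-fold higher in HBR227. With total counts alone as the scale, where the median of all genes tested moved to -0.11, the value was 0.23 ± 0.04.

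The short genes lmd-1 and lmd-2 overlapped between the strains. For lmd-1 the CPM was 14.1, 10.9, 10.9 and 10.3 in HBR227 A to D, against 10.7, 12.5, 10.99 and 11.6 in N2 A to D. For lmd-2 it was 11.9, 9.79, 9.22 and 9.73 in HBR227 A to D, against 9.72, 10.3, 10.1 and 10.3 in N2 A to D. HBR227 A was the highest of all 8 libraries for both genes, and the HBR227 means thus depend on it. The log2 fold changes were 0.01 ± 0.11 for lmd-1 and 0.01 ± 0.10 for lmd-2 (SE), and without HBR227 A they were -0.10 ± 0.08 and -0.08 ± 0.07. With total counts alone both stood at -0.10.

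In all, 3 of the 5 lmd genes separated the strains without overlap. Over all 17522 genes tested, 28.9% separated them so. As the members were proposed with these values known, nothing is read from that count. The median log2 fold change of the 5 genes lay at that of lmd-2, 0.01, and that of all genes tested was -0.00. Absolute log2 fold changes of 1 or more, which lmd-4 had, were found in 3.44% of the genes tested.

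**Figure D3:**
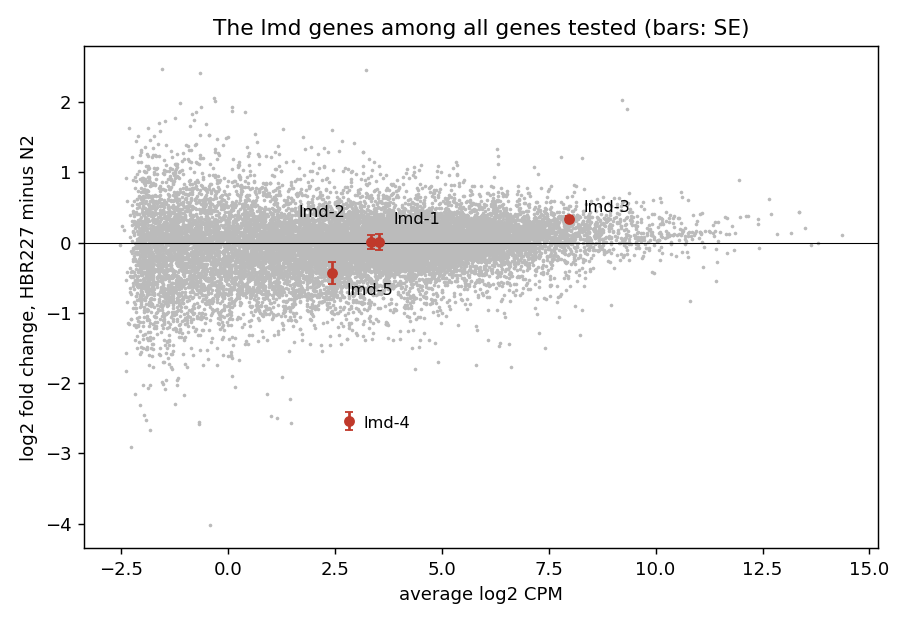
Log2 fold change (HBR227 minus N2, vertical) against average log2 CPM (horizontal) for the 17522 genes tested (grey), with the 5 lmd genes in red and their SE as bars. The point of lmd-4, at -2.54, lies under nearly all others of its abundance, whereas lmd-1 and lmd-2 lie at 0.01.

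Some pairs of lmd genes varied together across the libraries. Over the 8 libraries the Pearson correlation of log2 CPM was 0.89 between lmd-1 and lmd-2 and 0.71 between lmd-4 and lmd-5. Between lmd-3 and lmd-4 it was -0.96. These are descriptions over libraries that share strain and depth. The strain differences by which the family was chosen enter them, so genes that differ by strain score high in size through that alone. Correlations within a strain are not given. Over the 7 libraries without HBR227 A the correlation of lmd-1 with lmd-2 was 0.65, and that of lmd-3 with lmd-4 stayed at -0.96.

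The genes whose level over the 8 libraries was most like that of lmd-4 included known neuropeptide genes. In order they were snet-1 (Pearson r = 0.997), CE7X_3.2 (0.997), flp-11 (0.995), C14B9.2 (0.995) and T11B7.5 (0.993). The product of snet-1 is a secreted peptide, and flp-11 encodes the peptides through which RIS brings on sleep. The level of snet-1 was 53.0, 47.8, 48.8 and 53.9 CPM in HBR227 A to D, against 141, 129, 139 and 147 CPM in N2 A to D. That of flp-11 was 46.4, 42.2, 44.8 and 45.9 CPM in HBR227 A to D, against 154, 143, 152 and 163 CPM in N2 A to D. Both genes separated the strains as lmd-4 did, which follows from their likeness to it. Over all genes tested, every HBR227 library lay below every N2 library in 14.4%. A gene that differs by strain and varies little within it must score high here, whatever its size of difference, and C14B9.2 did so with a log2 fold change of -0.23.

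Genes most like lmd-5 shared its low level in HBR227 A. They were ncs-6, of the neuronal calcium sensor family, with r = 0.996, T06A1.5 (0.990), the peroxidase gene skpo-3 (0.986), C15H9.11 (0.986) and F32B5.1 (0.986). For ncs-6 the CPM was 10.2, 12.04, 12.2 and 12.2 in HBR227 A to D, against 14.04, 12.6, 13.01 and 13.2 in N2 A to D. Over the 7 libraries without HBR227 A the 5 correlations were 0.94 to 0.99.

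**Figure D4:**
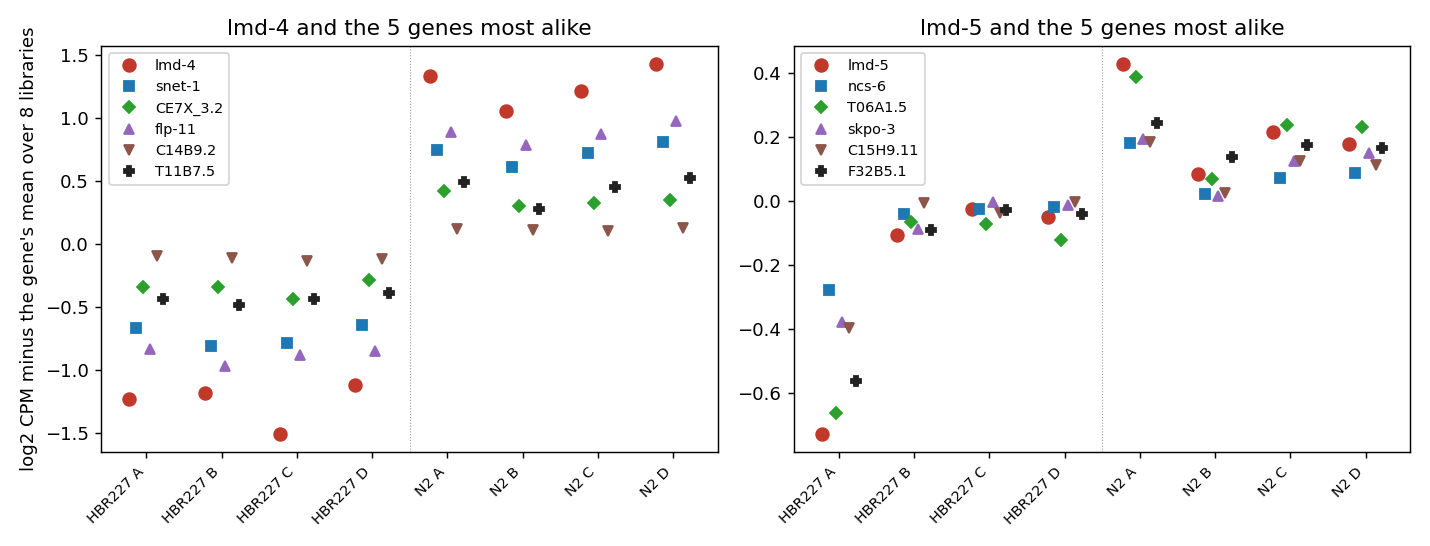
Log2 CPM minus each gene's own mean over the 8 libraries (vertical), for lmd-4 (left) and lmd-5 (right) and the 5 genes most like each, in HBR227 A to D and N2 A to D. All 6 genes on the left fall into a low HBR227 group and a high N2 group, whereas on the right HBR227 A is lowest for all 6 genes.

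For lmd-3 the closest genes were daf-12, a nuclear hormone receptor gene, the sphingomyelin synthase gene sms-1, C18H7.1, F42C5.4 and the lipin gene lpin-1, with r = 0.998 for each. For all of them the lowest HBR227 library lay above the highest N2 library. That follows from their choice by likeness to lmd-3, which separated the strains in the same way. Over all genes tested 14.5% did so. The level of daf-12 was 85.5, 88.1, 94.8 and 95.0 CPM in HBR227 A to D, against 67.2, 59.7, 64.5 and 67.8 CPM in N2 A to D.

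The short genes shared their pattern with genes that were high in HBR227 A. Closest to lmd-1 were cec-7 (r = 0.99), mec-15, Y48G10A.2, T26A5.8 and erh-1 (0.98 each), and closest to lmd-2 were Y92H12BR.2 (0.99), the shugoshin gene sgo-1 (0.99), the histone methyltransferase gene set-1 (0.98), aipl-1 (0.98) and cyp-31A5 (0.98). Without HBR227 A these correlations were 0.93 to 0.97 for lmd-1 and 0.90 to 0.95 for lmd-2, so the shared pattern was not only that library. For cec-7 the CPM was 27.01, 15.8, 16.3 and 14.7 in HBR227 A to D, against 16.1, 21.4, 17.1 and 17.5 in N2 A to D. Summed levels of egg markers also stood high in HBR227 A. The 9 oocyte and yolk markers summed to 148 CPM in HBR227 A and to 59.5 to 68.5 CPM in HBR227 B, C and D, against 50.2 to 68.8 CPM in N2. The 8 early embryo markers summed to 43.1 CPM in HBR227 A and to 21.4 to 24.98 CPM in HBR227 B, C and D, against 27.4 to 35.3 CPM in N2, and no marker of either list was at 0 in all libraries. A few genes carry most of these sums. In HBR227 oma-1 averaged 31.7 ± 12.6 CPM, oma-2 32.8 ± 21.6 CPM and pie-1 14.6 ± 7.01 CPM (SD, n = 4). The yolk genes vit-1 to vit-6 averaged only 0.543 to 3.17 CPM there. Between the strains the early embryo markers were mixed, with pes-10 and end-3 called lower and med-2 called higher. That is 37.5% of the 8, against 21.5% of all genes tested. Of the 9 oocyte and yolk markers 1 was called (11.1%). This was vit-6, which was higher (log2 fold change 0.96, edgeR adjusted p = 0.0092). The part of these markers in the levels of lmd-1 and lmd-2 was not tested.

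The summed level of pharyngeal gland markers was lower in every HBR227 library than in every N2 library. All 8 markers were tested, and 0 passed the edgeR test over all genes, also at an unadjusted p under 0.05 and with DESeq2, whereas without HBR227 A 4 of 8 were lower and none higher, against 23.3% of all genes lower in that fit. Their sum was 162 CPM in HBR227 A and 343 to 372 CPM in HBR227 B, C and D, against 434 to 475 CPM in N2. HBR227 A thus stood far below the other HBR227 libraries in this sum. For lmd-5 it also lay below them, at 3.14 CPM against 4.86 to 5.14 CPM, whereas for lmd-4 it lay within their range. The libraries of the strains did not overlap for phat-1, phat-2, phat-4 and phat-5, at log2 fold changes of -0.97 to -0.60, of which phat-5 was the most abundant, at 136 ± 60.7 CPM in HBR227 and 231 ± 10.98 CPM in N2 (SD, n = 4 each). They overlapped for phat-3, phat-6, hlh-6, the gland transcription factor gene, and kel-1, at -0.12 to 0.10. Of all genes tested, 14.4% had every HBR227 library below every N2 library. The 6 pharyngeal muscle markers summed to 3677 CPM in HBR227 A and 5703 to 5942 CPM in HBR227 B, C and D, against 5020 to 5325 CPM in N2. The part of the glands in the difference of lmd-4 or lmd-5 was not tested.

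Genes next to the lmd genes were tested to see whether their surroundings differed by strain. These genes are no members, so their tests are separate from the choice of the family, although that choice was made with earlier results known. Of the 30 protein-coding genes that are the nearest 3 on each side of each member, 22 could be tested, of which 1 rose and 2 fell. That is 13.6%, against 21.5% of all genes tested, with adjusted p under 0.05 (edgeR quasi-likelihood test, Benjamini-Hochberg). Without HBR227 A, 1 of 22 rose and 5 fell, against 44.3% called over all genes.

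Around lmd-4 itself most neighbours were close to silent. Of its 6 neighbours 4 were too low to test, among them the chemoreceptor genes srx-6 and srx-92. F07G11.2, 8.265 kb away, fell, at 0.278 ± 0.0887 CPM in HBR227 and 0.684 ± 0.234 CPM in N2 (SD, n = 4 each; log2 fold change -1.28 ± 0.33 SE, edgeR adjusted p = 0.021), but this call was lost without HBR227 D, N2 B or N2 C (adjusted p = 0.056 to 0.070). F10G2.4 did not pass, at -0.51 ± 0.19 on the log2 scale. Near lmd-2 the acyl-CoA binding protein gene acbp-1 fell (-0.37 ± 0.06, edgeR adjusted p = 0.0029), and near lmd-1 the mRNA decapping gene edc-3 rose (0.29 ± 0.07, edgeR adjusted p = 0.018). With total counts alone edc-3 was not called (adjusted p = 0.082). Of the 6 neighbours of lmd-3 and the 2 that could be tested near lmd-5, 0 passed in edgeR or DESeq2, and 1 near lmd-3 had an unadjusted p under 0.05.

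Genes for making, holding and cutting chitin, which LysM domains can bind, showed 3 falls and no rise among 13 tested. That is 23.1%, against 21.5% of all genes tested, and the list median was 0.14 on the log2 scale, against -0.00 over all genes. The chitin synthase of the pharynx, chs-2, stood at 6.31, 19.8, 16.98 and 18.9 CPM in HBR227 A to D, against 29.4, 38.6, 33.0 and 29.7 CPM in N2 A to D. No library of one strain overlapped those of the other, and HBR227 A was lowest (log2 fold change -1.07 ± 0.32 SE, edgeR adjusted p = 0.046). The chitinase gene cht-4 fell, to 0.510 ± 0.125 CPM in HBR227, against 1.12 ± 0.195 CPM in N2 (SD, n = 4 each; -1.14 ± 0.23, edgeR adjusted p = 0.0069). gna-1, for an acetyltransferase that makes the precursor of N-acetylglucosamine chains, fell as well (-0.44 ± 0.13, edgeR adjusted p = 0.037).

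Those calls were uneven in strength. The edgeR call of chs-2 was lost with upper quartile scaling (adjusted p = 0.058), with no low-count filter (adjusted p = 0.12) and without any single library other than HBR227 A, at adjusted p = 0.054 to 0.12, and passed without HBR227 A at adjusted p = 1.1e-05 with a log2 fold change of -0.82. That of gna-1 was lost with no low-count filter and without any single library other than HBR227 A or N2 C, at adjusted p = 0.055 to 0.12, whereas cht-4 was called in each of these fits. Without HBR227 A, 3 genes of the list rose and 6 fell, against 44.3% called over all genes, and without HBR227 B, C or D or N2 A, B or D only 1 was called. Eggshell members did not pass the test, and their spread in HBR227 was wide. The gene cpg-1, for a chitin-binding eggshell protein, averaged 55.7 ± 47.6 CPM in HBR227 and 25.2 ± 2.71 CPM in N2 (SD, n = 4 each). For cpg-1 and cpg-2 every HBR227 library still lay above every N2 library. The strains overlapped for cbd-1 and chs-1, also of this list. The whole list summed to 668 CPM in HBR227 A and 319 to 341 CPM in HBR227 B, C and D, against 349 to 405 CPM in N2.

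Of 28 chitinase-like chil genes, 24 could be tested, 6 rose and 2 fell. The share called was 33.3%, against 21.5% of all genes tested (11.2% higher and 10.4% lower), and the median log2 fold change was 0.34. chil-22 rose, to 8.88 ± 2.27 CPM in HBR227, against 4.26 ± 0.520 CPM in N2 (SD, n = 4 each; log2 fold change 1.06 ± 0.19 SE, edgeR adjusted p = 0.0038), as did chil-1 (0.75 ± 0.18, edgeR adjusted p = 0.018), which was not called without HBR227 D or N2 A, B or C (adjusted p = 0.050 to 0.056). The falls were chil-28 (-1.96 ± 0.39) and chil-15 (-1.92 ± 0.44), both under 1 CPM in each strain. Members of such a family may share reads, so single values are uncertain. The count called was 14 without HBR227 A, where 44.3% of all genes were called. It was 4 without HBR227 C or D, 3 without N2 B or C and 5 without N2 A, where 13.6% to 15.7% of all genes were called, so it moved with the count over all genes.

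Lysozymes cut peptidoglycan, the other glycan that LysM domains bind. Of 16 lysozyme genes, 13 could be tested, 5 rose and 1 fell. This share, 46.2%, compares with 21.5% of all genes tested, and the median log2 fold change was 0.45. The count called was 9 without HBR227 A, where 44.3% of all genes were called. It was 4 or 5 without any other single library, where 13.6% to 18% were called. The summed level was 143 CPM in HBR227 A and 238 to 245 CPM in HBR227 B, C and D, against 184 to 196 CPM in N2. Its largest member, lys-8, was not called (82.8 ± 26.2 CPM in HBR227, SD, n = 4). lys-2 rose, with 12.1, 20.1, 20.2 and 20.2 CPM in HBR227 A to D, against 9.83, 11.3, 9.93 and 10.1 CPM in N2 A to D (0.82 ± 0.16 SE, edgeR adjusted p = 0.0056), and its neighbour lys-1 rose too (0.56 ± 0.11, edgeR adjusted p = 0.0080). The invertebrate-type lysozyme gene ilys-5 rose at a low level, with 1.40 ± 0.320 CPM in HBR227 and 0.494 ± 0.119 CPM in N2 (SD, n = 4 each; 1.5 ± 0.24, edgeR adjusted p = 0.0023). lys-10 fell (-2.52 ± 0.56, edgeR adjusted p = 0.011) at a level of 0.0626 CPM in HBR227 and 0.387 CPM in N2. With only genes of at least 1 CPM in 4 libraries, 9 members were tested and 3 rose. Over all genes in that fit 25.9% were called, with 13.4% higher.

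Genes of the V-ATPase, the pump bound by TLDc proteins, fell in part. Of 21 tested, 7 fell and none rose, a share of 33.3% against 10.4% of all genes tested that fell, with a median log2 fold change of -0.20. vha-15 fell, to 191 ± 9.18 CPM in HBR227, against 226 ± 4.63 CPM in N2 (SD, n = 4 each; -0.24 ± 0.05 SE, edgeR adjusted p = 0.0065), and so did vha-8 (-0.27 ± 0.07), vha-17 (-0.23 ± 0.06) and vha-16 (-0.17 ± 0.05), with adjusted p = 0.026 to 0.033. The count depended on the scale and on single libraries. It was 1 with upper quartile scaling, and 15 with total counts alone, where 17.8% of all genes were lower. Without HBR227 A, 14 were lower and 1 higher, against 23.3% of all genes lower. Without HBR227 D 4 were lower, and without HBR227 C or any single N2 library only 1 was, where 5.84% to 6.94% of all genes were lower.

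**Figure D5:**
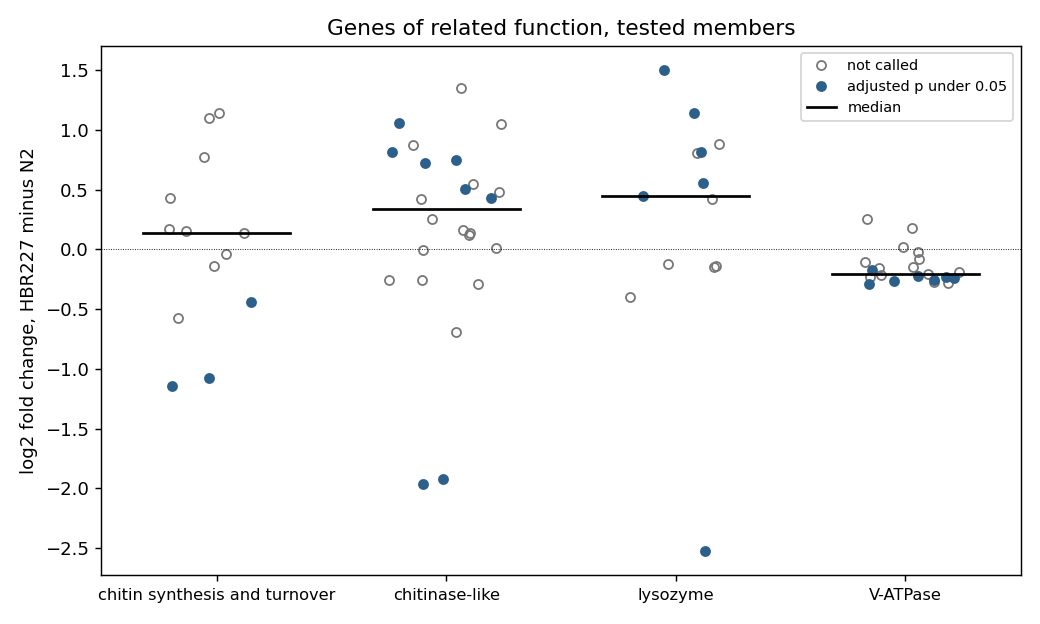
Log2 fold change (HBR227 minus N2) of each tested gene in 4 lists of related function, filled where the adjusted p was under 0.05, with a line at the list median. The medians are 0.14 for chitin synthesis and turnover, 0.34 for chitinase-like, 0.45 for lysozyme and -0.20 for V-ATPase genes.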

How the data were processed

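Per the file headers and values, the deposited file gives each gene's raw count in the 8 libraries, with no scaling by the authors. Per the labels' protocols, larvae were broken up by bead beating and RNA was extracted with Trizol. Per the submitters' processing notes, Bowtie 0.12.2 and the builds WBcel235 and mm8 are listed, with no role stated; the counting program and annotation release were not given. Of 46433 rows, 11 whose gene name had become a date (at most 0.0357% of a library's counts) were left out.

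The test was the robust quasi-likelihood F test of edgeR 4.0.16 in R 4.3.3, HBR227 minus N2, over all 8 libraries with no covariate, after TMM scaling and filterByExpr (minimum count 10). Benjamini-Hochberg adjustment covered all 17522 genes that passed, with calls at adjusted p under 0.05. The SE of a fold change is its size divided by the square root of F. The scripts were tested on simulated counts.

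Gene structures and lengths came from Ensembl release 115. Likeness is the Pearson correlation of log2 CPM (prior count 2) over 8 libraries, for genes averaging at least 1 on that scale. Named were all lmd genes, the 5 genes most like each, called neighbours, up to 4 called genes per list, aptf-1 and flp-11; other genes were named after their values were seen. The members and lists were chosen with earlier results of these data known. Alternatives were DESeq2 1.42.0, limma 3.58.1 (voom), other scalings and filters, a block for the replicate letter, and fits that leave out 1 library.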

Additional observations from a re-analysis of the deposited data

Results flagged for a closer look

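Within the groups of 4 libraries, 14 of 98 groups of a named gene and a strain held a library far from the other 3 by Dixon's ratio at its 95% critical value, where chance gives about 1 in 20; 13 of the 14 were HBR227 A. Genes chosen for likeness to an lmd gene share its pattern, so these are not independent. For lmd-1, HBR227 A stood at 14.1 CPM, against 10.3 to 10.9 CPM in HBR227 B, C and D. For lmd-5, HBR227 A stood at 3.14 CPM, against 4.86 to 5.14 CPM.

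HBR227 A was also the high library for edc-3 (50.8 CPM), cec-7 (27.01 CPM), mec-15 (40.4 CPM), Y48G10A.2 (14.4 CPM) and aipl-1 (41.1 CPM). It was the low library for aptf-1 (0.720 CPM), lys-2 (12.1 CPM), ncs-6 (10.2 CPM), T06A1.5 (8.99 CPM), C15H9.11 (15.9 CPM) and F32B5.1 (13.2 CPM). The remaining case was chil-1, where N2 D stood at 1.57 CPM, against 1.02 to 1.11 CPM in N2 A, B and C.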

How the results depend on the processing

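The log2 fold change of lmd-4 stayed between -2.64 and -2.46 over 16 alternatives, that of lmd-5 between -0.53 and -0.29 and that of lmd-3 between 0.23 (total counts alone, more than 1 SD of the libraries away) and 0.35, whereas lmd-1 (-0.10 to 0.07) and lmd-2 (-0.10 to 0.05) took both signs. The order of the 5 genes per length did not change with the longest transcript or with TPM. With 1 library left out, the genes called ranged from 2423 to 7906 (7906 without HBR227 A, 2423 without HBR227 C, 2510 without HBR227 D and 2430 without N2 B). List counts then ranged from 1 to 9 for chitin genes, 3 to 14 for chitinase-like genes, 4 to 9 for lysozyme genes, 1 to 15 for V-ATPase genes and 2 to 6 for neighbours. The share of all genes called in these fits ranged from 13.6% to 44.3%. With no low-count filter 1 chitin gene was called, against 12.1% of all genes. With a CPM of at least 1 in 4 libraries 3 lysozyme genes were called, against 25.9% of all genes. Of the V-ATPase genes 1 was called with upper quartile scaling and 15 with total counts alone, against 21.8% and 24.5% of all genes. Same-lettered libraries deviated together little or not at all (r = -0.0141, 0.142, 0.0341 and -0.0144 for A to D). Only B was most like its own letter, at 0.142 against -0.111 to 0.0199 with other letters. The letters are therefore not taken as pairs. With the replicate block 3065 genes were called, and lmd-4 stood at -2.54. Of 698 values of 44 other named genes, 636 were counted as unchanged, 55 lost the call and 7 gained it, and 0 of a called gene reversed. A change of sign in a gene not called in the main fit was counted as unchanged, whether or not it then passed. Genes under 1 CPM, such as lys-10, chil-28 and most neighbours of lmd-4, rest on few reads.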
